A study of Mus musculus with 3 samples.

Results

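The loss of Clec9a was examined in mice that already lacked secreted gelsolin, in conventional type 1 dendritic cells (cDC1s) from tumours. The cells were taken from the authors' deposited table of 5806 cDC1s by library and by cluster. Those of clusters 0 to 10 in the sGSN-/- and sGSN-/-Clec9a-/- libraries came to 3449 cells, 1683 and 1766 respectively. Cluster 11, which held 29 and 12 cells of these libraries, was left out. The study grew MCA205 tumours, a mouse fibrosarcoma line made to express LA-OVA, and sorted pre-cDCs, cDC1s and cDC2s from them by flow cytometry for single-cell RNA sequencing.

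Each genotype was measured in 1 library made from pooled mice, and all tumours were harvested on day 5. The sGSN-/- pool held 31 mice (15 males and 16 females) and the sGSN-/-Clec9a-/- pool 27 mice (10 males and 17 females), aged 6 to 20 weeks and, according to the methods, on a C57BL/6J background. Both pools lacked secreted gelsolin, so the comparison asks what differs when Clec9a is lost as well. The WT library, from 37 mice (25 males and 12 females), is given beside them as a level only. With 1 library for each genotype no difference was tested, and every comparison is between libraries. A ratio carries the genotype together with the pool of mice and its handling. As the pools differed in their shares of each sex, some values are also given for cells with Xist and no Y-linked UMIs (Xist cells) and for the opposite (Y-linked cells). Bracketed ranges are 95% intervals of counting error only, and clusters of a library are not replicates.

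Clec9a encodes DNGR-1, a receptor of cDC1s that binds actin filaments exposed on dead cells and signals through the kinase Syk. Its signalling promotes rupture of the phagosome by way of NADPH oxidase and thereby the cross-presentation of dead-cell antigens to CD8 T cells. Secreted gelsolin, a plasma protein, severs and covers actin filaments and so limits the access of DNGR-1 to its ligand.

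The summed cDC1s had 23484763 UMIs for sGSN-/-, 21444320 for sGSN-/-Clec9a-/- and 32632707 for WT. The median cell had 14246, 12263 and 14129 UMIs in that order, and 3036, 2728 and 3076 genes. The double-mutant cells were thus the shallowest of the 3 groups. A single UMI in the summed cells stood for 0.0426 CPM (UMIs scaled to a total of 1000000) in sGSN-/- and 0.0466 CPM in sGSN-/-Clec9a-/-. The cells of a cluster ranged from 27 and 28 in cluster 10 to 286 and 299 in cluster 0. The deposited labels of the 2 libraries shared 3 barcodes in the table and 27 among all barcodes.

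The cDC1 label was checked on 10 marker genes, and all 10 had a mean of at least 50 CPM over the 2 libraries. The chemokine receptor gene Xcr1 was counted at 222 CPM in sGSN-/- against 233 CPM in sGSN-/-Clec9a-/-, beside 205 CPM in WT. The lineage factor genes Irf8 (1181 and 1194 CPM) and Batf3 (269 and 261 CPM) were at like levels in both libraries. Clec9a was the marker that separated the libraries, as the genotypes require.

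Clec9a (ENSMUSG00000046080) lies on chromosome 6 from 129408862 to 129424763 (GRCm38, GENCODE M21). It was counted at 168 CPM (163 to 174; 3951 UMIs) in sGSN-/- and at 0.0933 CPM (0.0113 to 0.337; 2 UMIs) in sGSN-/-Clec9a-/-. The WT level was 168 CPM (164 to 173), so Clec9a did not differ between WT and sGSN-/- beyond counting error. The log2 ratio of the summed cells was -10.82 (-13.86 to -8.96). Within clusters, the sGSN-/- level of Clec9a ran from 92.9 CPM in cluster 8 to 229 CPM in cluster 7. The 2 UMIs of the double mutant were 1 in cluster 5 and 1 in cluster 7. Clec9a was lower in 11 of 11 clusters, and its median log2 ratio of -8.46 is set by the 0.5 UMIs added to each count. Gm43914, a gene model inside Clec9a (chromosome 6, 129418179 to 129418772), was at 34.1 CPM in sGSN-/- and had no UMI in sGSN-/-Clec9a-/-, at least 244-fold lower with the floor of 3 counts over the library. The counts of Clec9a thus match the genotype that the label names.

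Gsn (ENSMUSG00000026879; chromosome 2, 35256380 to 35307892) was counted at 169 CPM (164 to 175) in sGSN-/- against 167 CPM (161 to 172) in sGSN-/-Clec9a-/-, with 152 CPM in WT. Its median log2 ratio was -0.02, with 5 clusters higher and 6 lower. The mutation removes the secreted form, and gene counts do not separate it from the cytoplasmic form, so the counts of Gsn check neither gelsolin label.

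Genes with a mean of at least 50 CPM over the 2 libraries numbered 2378. A gene was called past the fold when its median log2 ratio over the counted clusters was at least 0.5 in size, with at least 6 clusters counted and at most 1 in the other direction. This held for 16 genes (0.673%), of which 12 were lower (0.505%) and 4 higher (0.168%) in sGSN-/-Clec9a-/-. All 16 were counted in 11 clusters, and 13 lay on one side in every cluster. Most genes moved little: the median of the 2378 ratios was -0.06, their 5th and 95th percentiles were -0.26 and 0.13, and 2219 (93.3%) were within 0.25 of 0. A further 7 genes had a median of at least 0.5 in size with clusters on both sides of 0 or too few of them.

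**Figure D1:**
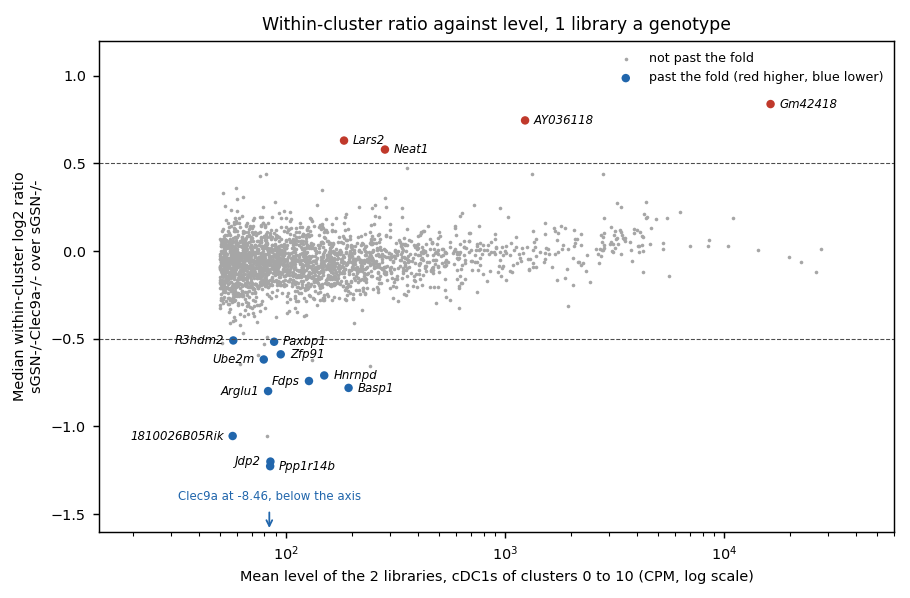
Each point is a gene with a mean of at least 50 CPM in cDC1s; the log horizontal axis is that mean in CPM and the vertical axis the median within-cluster log2 ratio of sGSN-/-Clec9a-/- over sGSN-/-, with dashed lines at -0.5 and 0.5. Genes past the fold are red (4 higher) or blue (lower), and Clec9a, at -8.46, lies below the axis and is marked by an arrow.

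Besides Clec9a, 11 genes were lower past the fold, and the lowest of them was Ppp1r14b, which encodes an inhibitor subunit of protein phosphatase 1 (chromosome 19, 6974968 to 6977324). It was at 118 CPM (114 to 123) in sGSN-/- and 51.6 CPM (48.6 to 54.7) in sGSN-/-Clec9a-/-, with 118 CPM in WT. Its median log2 ratio was -1.23, with 10 clusters lower and 1 higher at 0.05. Jdp2, whose product pairs with Jun and represses AP-1 sites (chromosome 12, 85599027 to 85639878), stood at 116 CPM (112 to 121) and 54.0 CPM (50.9 to 57.2), with 131 CPM in WT and a median of -1.20. Jdp2 was lower in 10 clusters, by the least in cluster 6 (-0.36), and higher in cluster 8, at 53.5 and 62.1 CPM (0.23). In both genes the sGSN-/- level lay nearer to the WT level than to that of the double mutant. Basp1, a membrane-bound protein gene that mature dendritic cells carry, was at 258 CPM (251 to 265) and 129 CPM (124 to 134), beside 259 CPM in WT. It was lower in 11 of 11 clusters with a median of -0.78, so its difference was not limited to the mature cells.

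The other lower genes had no single role. Hnrnpd, for the AU-rich element binder AUF1, was at 188 CPM in sGSN-/- against 112 CPM in sGSN-/-Clec9a-/- (176 CPM in WT), a median of -0.71. Arglu1, linked to splicing, went from 105 CPM to 61.1 CPM (103 CPM in WT), a median of -0.80 that ran from -0.90 to -0.60 over the 11 clusters. Arglu1 thus differed by nearly the same amount in every cDC1 state. The unnamed transcript 1810026B05Rik was at 78.2 CPM and 36.3 CPM (88.9 CPM in WT), a median of -1.05. Ube2m, for a NEDD8-conjugating enzyme, and Zfp91, for a zinc finger ubiquitin ligase, had medians of -0.62 and -0.59. Paxbp1 and R3hdm2 lay nearest to the threshold at -0.52 and -0.51. Each of the 7 genes of this paragraph was lower in 11 of 11 clusters.

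Fdps, for farnesyl diphosphate synthase of the mevalonate pathway, differed from the others in its WT level. It was at 160 CPM (155 to 165) in sGSN-/-, 95.2 CPM (91.1 to 99.4) in sGSN-/-Clec9a-/- and 122 CPM (118 to 126) in WT. Its median was -0.74, but clusters ran from -2.21 to 0.55. Idi1, Hmgcs1 and Sqle, further genes of sterol synthesis chosen after their values were seen, had means below the level. Idi1 was at 52.6 and 26.2 CPM with a median of -0.81, and Hmgcs1 at 45.9 and 27.7 CPM with -0.47. Sqle was at 12.6 and 6.76 CPM, with 1 of 9 counted clusters higher.

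Cebpb, for the transcription factor C/EBPβ (chromosome 2, 167688915 to 167690418), had a mean below 50 CPM and so was not among the genes described. Chosen after its values were seen, it was at 60.6 CPM (57.5 to 63.8) in sGSN-/-, 18.7 CPM (16.9 to 20.6) in sGSN-/-Clec9a-/- and 75.0 CPM in WT. It was lower in 11 of 11 clusters, from -2.25 to -0.69, with a median of -1.70. Further genes under the level and also seen afterwards were Kif2a (33.1 and 15.6 CPM), Tnrc6c (37.0 and 21.2 CPM), Dnajc21 (35.6 and 19.6 CPM) and Larp1b (45.9 and 26.4 CPM).

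**Figure D2:**
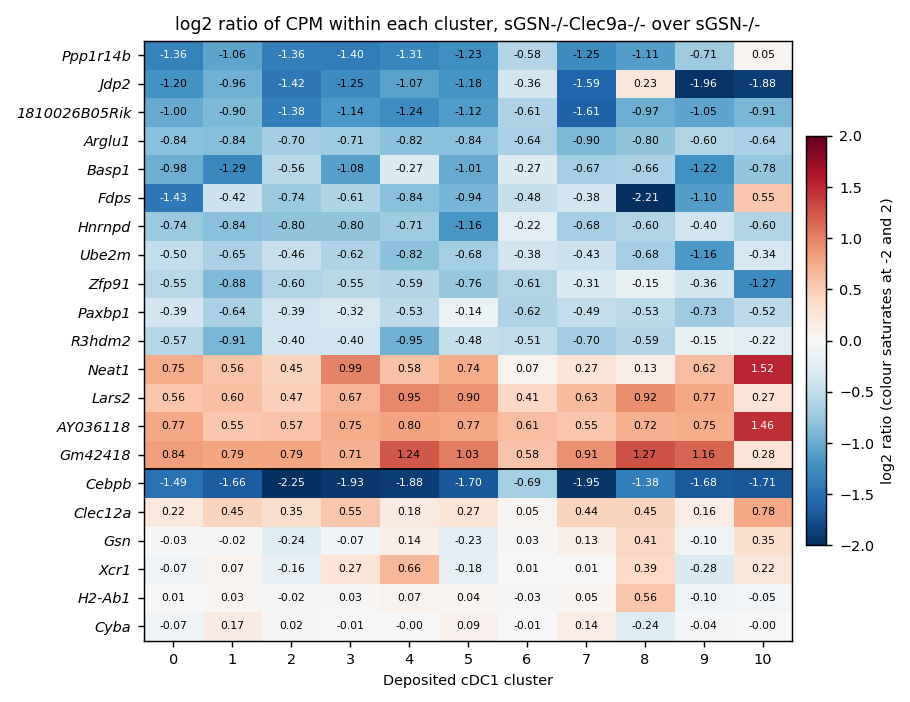
Heat map of the log2 ratio of sGSN-/-Clec9a-/- over sGSN-/- for each gene (rows) within each deposited cluster 0 to 10 (columns), with the value printed in each cell; genes past the fold without Clec9a are above the line, and Cebpb, Clec12a, Gsn, Xcr1, H2-Ab1 and Cyba below it. Arglu1 lies between -0.90 and -0.60 over the clusters, and Fdps spreads from -2.21 to 0.55.

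The 4 genes higher past the fold included a pair of ribosomal RNA models. Gm42418 (chromosome 17, 39846958 to 39848788) and AY036118 on the other strand (39847113 to 39848035) overlap each other in a stretch of ribosomal RNA sequence. Gm42418 was at 11182 CPM (11139 to 11225) in sGSN-/- against 21475 CPM (21413 to 21537) in sGSN-/-Clec9a-/-, with 11297 CPM in WT and a median log2 ratio of 0.84. AY036118 was at 954 and 1521 CPM (900 CPM in WT), a median of 0.75. Neat1, the RNA on which paraspeckles form, was at 221 and 347 CPM (249 CPM in WT), a median of 0.58. Lars2, for the mitochondrial leucyl-tRNA synthetase, was at 141 and 228 CPM (158 CPM in WT), a median of 0.63. All 4 were higher in 11 of 11 clusters, and in each the WT and sGSN-/- levels lay closer to each other than to the double mutant.

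Not every nuclear RNA was higher. Malat1 was at 27013 CPM in sGSN-/- against 25390 CPM in sGSN-/-Clec9a-/-, a median of -0.12 with 4 clusters higher and 7 lower. Of a list of nuclear and ribosomal RNAs that also held the messenger RNA Lars2, and that was chosen with the higher genes known, 9 of 12 measured genes reached the level and 4 were higher past the fold, beside 0.168% of all genes described. As those 4 were known when the list was made, this count is no separate result. The list summed to 40472 CPM for sGSN-/-, 49973 CPM for sGSN-/-Clec9a-/- and 42411 CPM for WT. Mitochondrial transcripts made up 1.73% and 2.01%, beside 1.64% in WT. Of 13 mitochondrially encoded genes, 12 reached the level and their median was 0.25. That median was 0.32 after centring on the median gene and 0.27 on totals without these RNAs. The nearest to the fold were mt-Nd3 (296 and 419 CPM, a median of 0.48) and mt-Co3 (2411 and 3216 CPM, 0.44). Whether these shares follow from the genotype or from the state of the cells at capture was not tested.

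Just short of the threshold on the lower side was Smap1, at 74.8 CPM in sGSN-/- against 52.7 CPM in sGSN-/-Clec9a-/- with a median of -0.47. On the higher side Gm10076 (1127 and 1532 CPM) had a median of 0.44, but its WT level was 1711 CPM. These genes lie close enough to R3hdm2 and Neat1 that the count of 16 depends on where the fold is set.

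The same ratios were taken in other barcodes of the libraries, outside the deposited table, picked by UMIs of lineage genes. An NK cell gate held 1284 barcodes in sGSN-/- and 942 in sGSN-/-Clec9a-/-, with medians of 7111 and 6045 UMIs. A cDC2 gate, on UMIs of Cd209a, Mgl2, Clec10a, Sirpa and Itgam, held 1281 and 1749 barcodes, with medians of 12636 and 11203 UMIs. Barcodes of a gate were summed without clusters, so cell states were not matched between the libraries. In the cDC2 gate Cd209a was at 623 and 622 CPM, but Lyz2 at 870 and 1664 CPM. Whether the make-up of the gate differed was not tested. In NK barcodes Clec9a was at 4.22 CPM in sGSN-/- against 0 CPM in sGSN-/-Clec9a-/-, and in cDC2 barcodes at 18.1 and 0.229 CPM. In sGSN-/- both levels were below the 168 CPM of cDC1s. Another gate, for C1q macrophages, held 13 barcodes in sGSN-/- and is not read.

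Ppp1r14b was at 208 CPM in sGSN-/- against 83.5 CPM in sGSN-/-Clec9a-/- in NK barcodes, and at 131 and 64.4 CPM in cDC2 barcodes. Cebpb was at 151 and 39.9 CPM in NK barcodes and at 173 and 80.6 CPM in cDC2 barcodes. Gm42418 was at 10243 and 22726 CPM in NK barcodes and at 10726 and 21891 CPM in cDC2 barcodes. These values are given beside those of cDC1s, and what set them was not tested. Over the 11 lower genes without Clec9a, the log2 ratio in NK barcodes ran from -1.32 for Ppp1r14b to -0.41 for Fdps. In cDC2 barcodes it ran from -1.52 for Jdp2 to -0.12 (-0.20 to -0.04) for Fdps. The 4 higher genes ran from 0.41 for Neat1 to 1.15 for Gm42418 in NK barcodes, and from 0.57 to 1.03 for the same genes in cDC2 barcodes. Fdps, at 137 and 126 CPM in cDC2 barcodes, was the gene whose difference in cDC1s had the smallest counterpart there. The genotype and the library cannot be told apart as sources of these ratios.

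**Figure D3:**
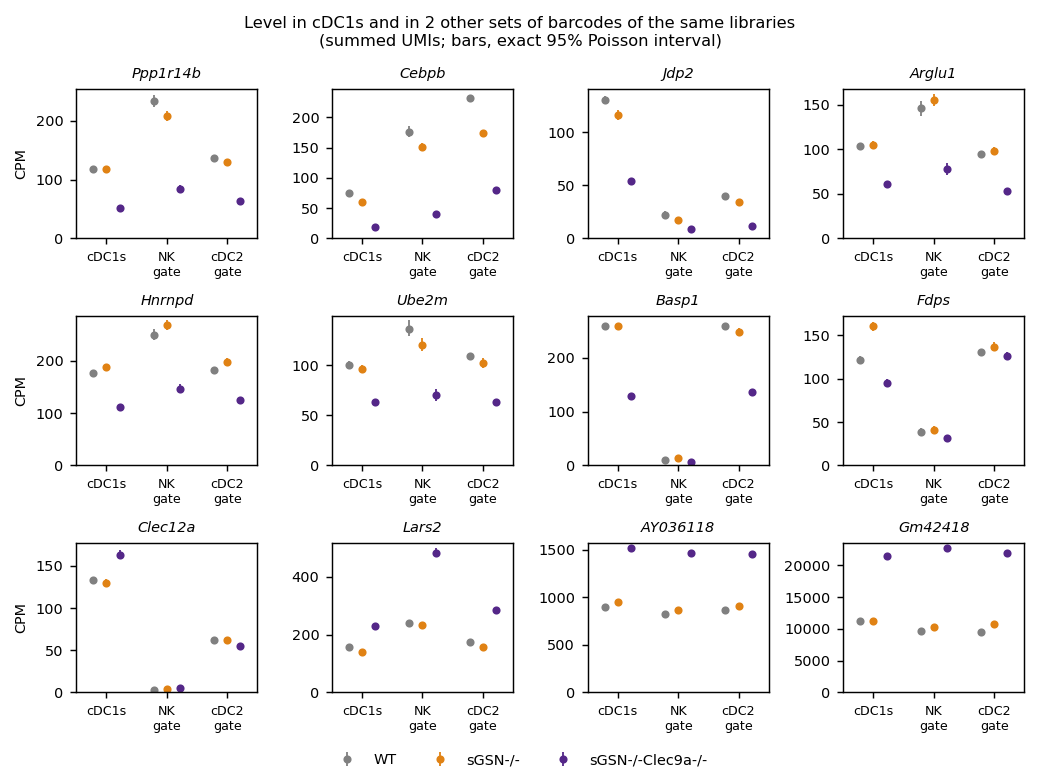
CPM of 12 genes in WT (grey), sGSN-/- (orange) and sGSN-/-Clec9a-/- (purple) in summed cDC1s, NK barcodes and cDC2 barcodes; bars are exact 95% Poisson intervals of counting error. Ppp1r14b is lowest in sGSN-/-Clec9a-/- in all 3 kinds of cell, and Fdps is at 137 and 126 CPM in cDC2 barcodes of the gelsolin-deficient libraries.

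The neighbours of Clec9a on chromosome 6 were read within 1 Mb, since a knockout can carry flanking sequence of the strain in which it was made. Clec12a (129342691 to 129365303), for an inhibitory receptor that senses uric acid crystals, was at 129 CPM (125 to 134) in sGSN-/- against 163 CPM (158 to 169) in sGSN-/-Clec9a-/-, with 133 CPM in WT. It was higher in 11 of 11 clusters with a median of 0.35, short of the fold. In summed Xist cells its log2 ratio was 0.40 (0.31 to 0.49), and in summed Y-linked cells 0.13 (-0.01 to 0.27) with 6 clusters higher and 5 lower, so the agreement of the clusters was not kept in Y-linked cells. In cDC2 barcodes Clec12a was at 61.8 and 54.9 CPM, a log2 ratio of -0.17 (-0.29 to -0.05). The higher level was thus not seen in the sum of those barcodes, which were not split by cell state. Clec1b (129397297 to 129409335), which overlaps Clec9a, and Clec1a (129424772 to 129452000), on the other strand next to its end, were low. Both were named after their values were seen. Clec1b was at 8.52 and 3.26 CPM with 8 of 8 counted clusters lower, and Clec1a at 7.07 and 3.08 CPM with 8 of 8 lower. Whether these UMIs stem from Clec9a transcripts or from the neighbours themselves was not tested.

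Of the neighbours farther away, most stayed nearer to 0. Among low ones, named after their values were seen, Klra7 (2.81 and 0.886 CPM) was lower in 6 of 6 counted clusters. Its WT level was 0.582 CPM, nearer to that of the double mutant than to that of sGSN-/-. Clec2i (5.79 and 3.59 CPM) was lower in 8 of 9. Klri1 (3.36 and 4.06 CPM) was higher in 5 of 7, and Klra5 (3.24 and 3.59 CPM) in 4 of 6. Clec2d, for a ligand of an NK cell receptor, was at 56.8 and 61.0 CPM with a median of 0.19. Klrk1, for the activating receptor NKG2D, was at 171 and 153 CPM with a median of -0.15, and Klrb1b at 160 and 152 CPM with -0.09. Klrd1, which encodes CD94, was at 84.5 and 65.5 CPM, and its median of -0.59 had 2 clusters on the other side, which kept it from being called. Its WT level was 62.3 CPM, below that of sGSN-/-. In summed cells Klrd1 was lower among Xist cells, at -0.63 (-0.77 to -0.49), and higher among Y-linked cells, at 0.25 (0.07 to 0.43). It thus has no common direction in summed cells. Within clusters its median was -0.39 in Xist cells (4 clusters higher, 7 lower) and -0.03 in Y-linked cells (4 higher, 5 lower).

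**Figure D4:**
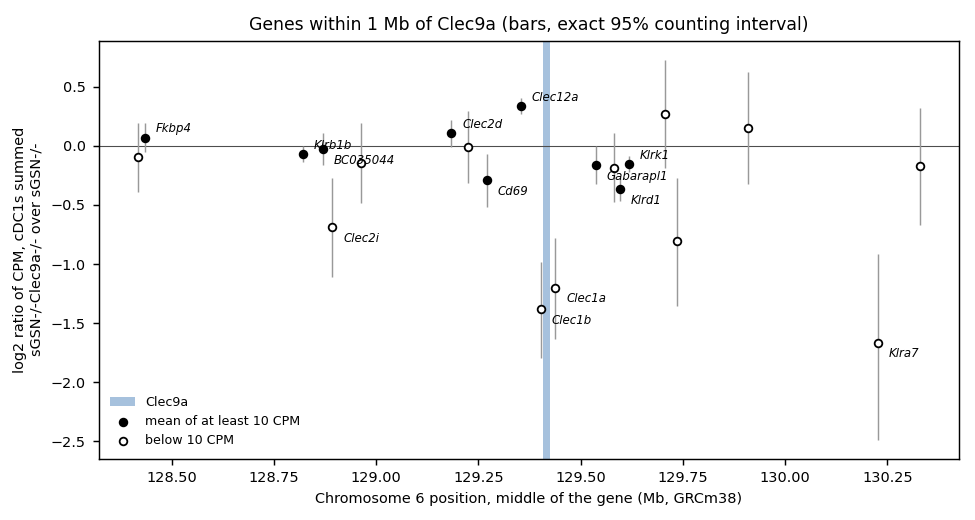
Genes within 1 Mb of Clec9a on chromosome 6 that were counted in at least 6 clusters, by the middle of the gene (Mb, GRCm38), with the log2 ratio of sGSN-/-Clec9a-/- over sGSN-/- in summed cDC1s on the vertical axis; bars are 95% counting intervals, filled points have a mean of at least 10 CPM, and the blue band is Clec9a. Clec1b (-1.38) and Clec1a (-1.20) beside the band are lower, as is Klra7 (-1.67) farther away, and Clec12a is higher at 0.34. Klra7 was at 0.582 CPM in WT, nearer to the double mutant than to sGSN-/-.

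Of a list made for the DNGR-1 pathway, which also held Wdfy4 for cross-presentation, 11 of 17 genes reached the level. Clec9a itself was the member past the fold, beside 0.505% of all genes that were lower. The median of the list was -0.05, or -0.03 without Clec9a, beside -0.06 for all genes. Syk, for the kinase that binds DNGR-1, was at 52.3 CPM in sGSN-/- against 47.2 CPM in sGSN-/-Clec9a-/-. Cyba, for a membrane subunit of NADPH oxidase, was at 964 and 946 CPM with a median of -0.00, and Wdfy4, needed for cross-presentation, at 406 and 442 CPM. Syk had a mean just below the level. Rac1, for a GTPase of the oxidase, was lower in 11 of 11 clusters, at 257 and 233 CPM with a median of -0.12. Whether the pathway as a whole was at the same level in both libraries was not tested. Of the actin and gelsolin genes, 12 of 19 reached the level and their median was -0.06. Tmsb4x, for the actin-sequestering thymosin β4, was at 27936 and 27835 CPM, and Actb at 14399 and 14238 CPM.

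Antigen presentation genes had medians close to 0. The share of all genes past the fold was 0.673%, so a list of this size without a call says little, and the median is the value given. Of the MHC class I and cross-presentation list, 19 of 24 genes reached the level and the median was -0.02. H2-D1 was at 1624 and 1543 CPM, the immunoproteasome subunit gene Psmb8 at 1399 and 1360 CPM. Of the MHC class II list, 13 of 14 reached the level and the median was 0.01, with Cd74 at 19826 and 19833 CPM and H2-Ab1 at 10317 and 10620 CPM. Of the cDC1 identity list, 16 of 20 reached the level, with Clec9a alone past the fold and a median of -0.00.

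Maturation genes showed what the clusters were needed for. Of 36 genes of the CCR7 state, 12 reached the level, with a median of -0.34. Of these 12, Basp1 was lower past the fold, beside 0.505% of all genes described. Ccr7, the receptor that takes mature cells to lymph nodes, was at 134 CPM in sGSN-/-, 30.3 CPM in sGSN-/-Clec9a-/- and 77.5 CPM in WT. It was counted in 5 clusters, higher in 2 and lower in 3, and 3079 of its UMIs in sGSN-/- and 601 in sGSN-/-Clec9a-/- lay in cluster 8, which held 114 and 57 cells. Within cluster 8 Ccr7 was at 2424 and 1166 CPM, and how far the number of cells, their state or the pool set this was not tested. Il12b, for the shared subunit of IL-12 and IL-23, was at 2087 and 1048 CPM in cluster 8, but was higher in 4 of 9 counted clusters. The co-stimulatory gene Cd83 was at 772 and 774 CPM, and Cd86 at 189 and 174 CPM with 10 of 11 clusters lower and a median of -0.06. Below the level, Cd40 was at 32.1 and 23.1 CPM with 8 of 11 clusters lower. Cd274, which encodes PD-L1, was at 34.0 and 19.8 CPM, but lower in 5 and higher in 6 clusters.

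Interferon and inflammatory genes were read in the same way. Cxcl9, for a chemokine that draws CXCR3-bearing T cells, was at 167 and 157 CPM with 129 CPM in WT. Cxcl10 was at 59.1 and 83.5 CPM with 48.7 CPM in WT, but its median was 0.18 with 5 clusters higher and 5 lower. In summed Xist cells Cxcl9 was at 213 and 121 CPM, a log2 ratio of -0.82 (-0.90 to -0.73), and in summed Y-linked cells at 81.2 and 189 CPM, one of 1.22 (1.07 to 1.37). The near-equal levels of all cells thus hold opposite differences in the summed cells of each sex. Within clusters the medians of Cxcl9 were smaller and the clusters mixed. They were -0.21 in Xist cells (4 clusters higher, 7 lower) and 0.29 in Y-linked cells (5 higher, 4 lower). The difference between the sexes was not tested. In cluster 10, where Cxcl9 was most abundant, it was at 4982 and 4770 CPM. Of the interferon gamma list 5 of 20 genes reached the level with a median of -0.06, and of the type I interferon list 10 of 23 with a median of -0.09. Of the NF-kB list 12 of 25 reached the level with a median of -0.10. Il1b, the most abundant of them, was at 2168 CPM (2149 to 2187) and 1736 CPM (1718 to 1754), with 2275 CPM in WT and a median of -0.31 that was negative in 9 of 11 clusters. In summed Xist cells Il1b was at 2088 and 1530 CPM. In summed Y-linked cells it was at 2287 and 2272 CPM, a log2 ratio of -0.01 (-0.05 to 0.03), so no difference was detectable there. Within clusters its median was -0.45 in Xist cells, with 9 of 11 lower, and -0.18 in Y-linked cells, with 6 of 11 lower. Among inflammatory chemokines 5 of 15 reached the level, with a median of 0.26. Ccl6, for a CCR1 ligand, was at 48.6 and 69.4 CPM and higher in 10 of 11 clusters, short of the fold at 0.36.

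Stress and metabolic lists were read by their medians, beside -0.06 for all genes. Immediate early genes had 24 of 26 at the level and a median of 0.05. Fos was at 2573 and 2764 CPM, and Dusp1, for a phosphatase of MAP kinases, at 557 and 718 CPM with 741 CPM in WT and a median of 0.22. In summed Xist and Y-linked cells Fos was at 0.21 and -0.20, so it did not keep its direction. Dusp1 was at 0.50 and -0.02 (-0.09 to 0.05), so its difference was not detectable in summed Y-linked cells. Within clusters the medians in Xist and Y-linked cells were 0.20 and 0.003 for Dusp1, and 0.08 and -0.04 for Fos. Heat shock genes (12 of 15) had a median of -0.18, and genes of the unfolded protein response (15 of 19) one of -0.09. Hspa5, for the chaperone BiP, was at 1092 and 931 CPM and lower in 10 of 11 clusters with a median of -0.16. Whether handling of the cells differed between the libraries was not tested. Glycolysis and hypoxia genes (12 of 20) had a median of -0.06, C/EBP factors and partners (6 of 15) one of -0.12, S100 and early cDC genes (9 of 16) one of 0.03, and cell cycle genes (3 of 18) one of -0.01. C-type lectins of chromosome 6 (6 of 22) had a median of -0.12, or -0.09 without Clec9a.

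Sums of markers of other cells were read as levels, since dendritic cells make several of these genes as well. The 10 NK cell markers summed to 264 CPM in sGSN-/- against 90.1 CPM in sGSN-/-Clec9a-/-, most of it from Ccl5, which mature dendritic cells make as well (203 and 61.0 CPM). Without Ccl5 the NK sum was 60.3 and 29.1 CPM. In WT the NK sum was 120 CPM with Ccl5 and 20.6 CPM without it, so sGSN-/- was the highest library in both. The 8 T cell markers summed to 8.94 and 5.13 CPM, and 4 of 6 neutrophil markers (S100a8, S100a9, Retnlg and Mmp9) had no UMI in either library. Macrophage and monocyte markers (15) summed to 904 and 1025 CPM, of which Lyz2, also made by dendritic cells, gave 715 and 815 CPM. cDC2 markers (8) summed to 143 and 129 CPM, and plasmacytoid markers (7) to 639 and 559 CPM with Bst2 the most abundant. Fibroblast and tumour cell markers (8) summed to 4.64 and 2.80 CPM and red cell markers (5) to 0.0852 and 0.373 CPM. Cells with at least 3 UMIs of NK or C1q genes were 123 (7.31%) of sGSN-/- and 43 (2.43%) of sGSN-/-Clec9a-/-, with 4.09% in WT. Without them 16 genes were past the fold, 15 of them the same as before, and Ppp1r14b was at -1.21. Ccr7, which was not called, went from -1.05 to 1.24 as its median over the counted clusters, so that median has no firm direction. Free RNA in the droplets was not tested.

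The ratios of the called genes were repeated in cells of each sex. Xist cells numbered 916 and 1143, and Y-linked cells 524 and 355. The median log2 ratio of Ppp1r14b was -1.14 in Xist cells and -1.09 in Y-linked cells, that of Jdp2 -1.20 and -1.14, and that of Cebpb -1.75 and -1.78. For Gm42418 it was 0.81 and 0.76, and for Neat1 0.61 and 0.31. These genes thus differed in the same direction in cells of either sex. Paxbp1, at -0.50 and -0.31, and Fdps, at -0.83 and -0.55, were closer to 0 in Y-linked cells. Not past the fold in Y-linked cells were Zfp91 (-0.49, 3 of 9 counted clusters higher) and Ube2m (-0.60, 2 of 10 higher). The same held there for Fdps (2 of 9 higher), and for Paxbp1 and Neat1 by the size of their medians. R3hdm2 was not past it in Xist cells, at -0.44. Xist itself, the RNA of the inactive X chromosome, was at 219 and 279 CPM, and Ddx3y on the Y chromosome at 29.0 and 17.9 CPM.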

How the data were processed

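Raw UMI counts per gene and barcode were deposited by the authors for 3 libraries, made with Cell Ranger 6.0.1 (file header) on the mm10 transcriptome, with a table of cDC1s clustered by them in Seurat. UMIs were summed per cluster and library, and log2 ratios were taken after adding 0.5 UMIs to each count. A cluster was counted for a gene with at least 10 UMIs over both libraries. Levels are CPM of the summed cells with exact Poisson intervals, and ratios of sums have exact conditional binomial intervals. Named genes were Clec9a, Gsn, genes past the fold (up to 12 each way), up to 3 abundant members and called members of 30 gene lists, genes the paper names for cDC1 states, neighbours of Clec9a of at least 10 CPM, and the 5 largest and smallest ratios without clusters. The members and the lists were chosen with earlier results of these data known. Genes named after their values were seen were Cebpb, Kif2a, Tnrc6c, Dnajc21, Larp1b, Idi1, Hmgcs1, Sqle, Clec1a, Clec1b, Gm43914, Ccl6, Smap1 and Gm10076, of which Gm43914 and Ccl6 also met the rule. Klra7, Clec2i, Klri1 and Klra5 were also named in this way. Other barcodes had at least 5 UMIs of a gate's genes, at most 1 of the other gates' genes, no Xcr1 and at least 1000 UMIs. Doublets were not called here, and the authors' treatment of them is not described. Cells with at least 3 UMIs of NK or C1q genes, Ccl5 not counted, were left out as an alternative. The ratios and calls were tested on simulated data with planted changes and counting error only. That simulation held no variation between pools of mice or their handling, so it says nothing about calls from such variation. Python 3.11.15, numpy 2.4.6, scipy 1.17.1 and pandas 2.3.3 were used.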

Additional observations from a re-analysis of the deposited data

Results flagged for a closer look

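In 3 named genes of at least 50 CPM the median within-cluster log2 ratio of sGSN-/-Clec9a-/- over sGSN-/- lay at least 0.3 from 0 in opposite directions in cells with Xist and in cells with Y-linked UMIs. Il12b was at -0.84 in Xist cells (7 clusters counted, 1 higher and 6 lower) and 0.35 in Y-linked cells (5 clusters, 3 higher and 2 lower). Cxcl10 was at -0.36 (9 clusters, 4 higher and 5 lower) and 2.20 (5 clusters, 3 higher and 2 lower). In Y-linked cells both genes thus had mixed clusters, and fewer than the 6 counted clusters that a call requires. Ccl6 was at 0.56 (11 clusters, 10 higher) and -0.39 (8 clusters, 7 lower). In the summed cells, without regard to cluster, Il12b was lower in both kinds of cell, at -1.93 (-2.09 to -1.77) and -1.43 (-1.63 to -1.24). Ccl6 was at 0.73 (0.58 to 0.87) and -0.08 (-0.34 to 0.19) in the summed cells, so its opposite direction was not detectable there. Cxcl10 was at -0.14 (-0.27 to -0.01) and 2.65 (2.37 to 2.93). The difference between the sexes was not tested, since 1 library stands on each side.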

How the results depend on the processing

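The count of 16 genes past the fold moved with the threshold and the level: it was 27 at a mean of 20 CPM, 7 at 100 CPM, 165 with no filter on level, 47 with a log2 fold of 0.3 and 4 with a log2 fold of 1. Without clusters as strata it was 29, which adds genes of the mature state such as Ccr7, Il12b, Ccl5 and Ccl22; the cause was not tested. Under the other alternatives it lay between 13 (no cluster allowed in the other direction) and 21 (Y-linked cells only, of which 11 were among the 16). For the 16 genes under 11 settings, 135 of 176 values stayed within their interval, 41 moved and 0 changed direction. Paxbp1 was at -0.31 in Y-linked cells, Neat1 at 0.31 there and Fdps at -0.49 with equal weight for clusters. Clec9a was at -6.01 with 5 UMIs added, which follows from its 2 UMIs. Thinning every cell to 3900 UMIs left out 81 cells of sGSN-/- and 104 of sGSN-/-Clec9a-/- and gave 19 genes. No paired analysis was possible because each genotype has 1 library of pooled mice. At 50 CPM a cluster of few cells holds few UMIs of a gene, so its ratio alone was not read.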
